A study of Homo sapiens with 6 samples.

Results

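The 28 genes described here make cholesterol or control how much of it is made. They were taken by name from a list of the cholesterol synthesis and SREBP2 pathway, and all transcripts of each gene were summed. All 28 were found among the 26425 genes of the table, and all 28 passed the filter for testing, more than 1 RPKM (reads scaled to transcript length and library depth) in at least 3 libraries. Among them are 20 enzymes, of which 4 use molecular oxygen, 1 scaffold protein of the synthesis complex, and 7 genes that control the transcription factor SREBP2 or move sterols. Total RNA was sequenced from bulk SUM1315, an established human triple-negative breast cancer cell line recorded as wild type, after 24 h in 1% oxygen in a sealed chamber (hypoxia, 3 libraries) or in 21% oxygen (normoxia, 3 libraries). Both groups were grown in the same medium with heat-inactivated serum, insulin and EGF. All cells are 1 line, and nothing in the labels ties each replicate to a culture of its own. A p-value here therefore sets a difference between groups only against the spread of libraries within a group, and that spread may be technical. In bulk RNA, fewer cells expressing a gene and less RNA per cell cannot be told apart.

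Cholesterol is built from acetyl-CoA through mevalonate, isoprenoid diphosphates, squalene and lanosterol, and the later part of the route cannot run without oxygen. SQLE adds oxygen to squalene, CYP51A1 and MSMO1 remove methyl groups from the sterol ring by oxidation, and SC5D makes a ring double bond with oxygen. Most genes of the route are switched on by SREBP2 (gene SREBF2), which sits in the endoplasmic reticulum bound to its escort SCAP. When sterol is plentiful, INSIG1 and INSIG2 hold SCAP in place. When sterol is scarce, SCAP carries SREBP2 to the Golgi, where the proteases MBTPS1 and MBTPS2 release the active part. INSIG1 is itself a target of SREBP2, whereas INSIG2 has been described in other cells as a gene raised in low oxygen.

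The libraries held 44.0 to 50.7 M reads in hypoxia and 50.4 to 50.9 M in normoxia, as read from the smallest steps of the table. The first principal component held 71.0% of the variance and separated hypoxia from normoxia. Of the markers, vimentin (VIM) was at 4741 to 7439 RPKM in every library, while the epithelial genes KRT8, KRT18, KRT5, KRT14, KRT17 and EPCAM were at or under 0.110 RPKM, so markers of breast epithelium were close to absent. Of the receptors, ESR1 was at or under 0.209 RPKM and ERBB2 at 20.2 to 23.7 RPKM. The leukocyte gene PTPRC did not exceed 0.00826 RPKM and the liver gene ALB 0.106 RPKM. CD68, a lysosomal protein used as a macrophage marker, was at 73.5 to 80.7 RPKM in hypoxia and 45.8 to 48.3 RPKM in normoxia, while PTPRC was listed at 0 in all 3 hypoxia libraries. Values below are RPKM per gene in replicates 1, 2 and 3, a value with ± is a mean with its SD over 3 libraries, and every log2 fold change is of hypoxia over normoxia after 1 was added to each RPKM, which shrinks the change of a weakly expressed gene. Adjusted p-values come from limma over all 11889 tested genes with Benjamini-Hochberg adjustment, and a gene is called raised or lowered at an adjusted p under 0.05.

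The RNA of most cholesterol synthesis enzymes was lower in hypoxia, and that of INSIG2 was higher. The mean level of the lowered enzymes fell by 11.6% for FDPS, the smallest decrease, and fell by 29.5% for LBR, the largest. Of the 28 genes, 16 were lowered and 2 raised, where 24.4% of all tested genes were lowered and 12.4% raised. The median log2 fold change of the 28 genes was -0.25, beside -0.08 over all tested genes. Among the 20 enzymes 14 were lowered and 1, PMVK, was raised, with a median of -0.33. The 3 libraries of hypoxia lay wholly below the 3 of normoxia for 18 of the 28 genes and wholly above them for 2, beside 35.5% and 16.4% of all tested genes. With median-of-ratios scaling 13 of the 28 genes were lowered and 2 raised, and among all tested genes 2028 were then raised and 1422 lowered, beside 1479 raised and 2900 lowered with RPKM as deposited. Without normoxia replicate 3, 9 of the 28 genes were lowered, beside 12.9% of all tested genes in that run.

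**Figure D1:**
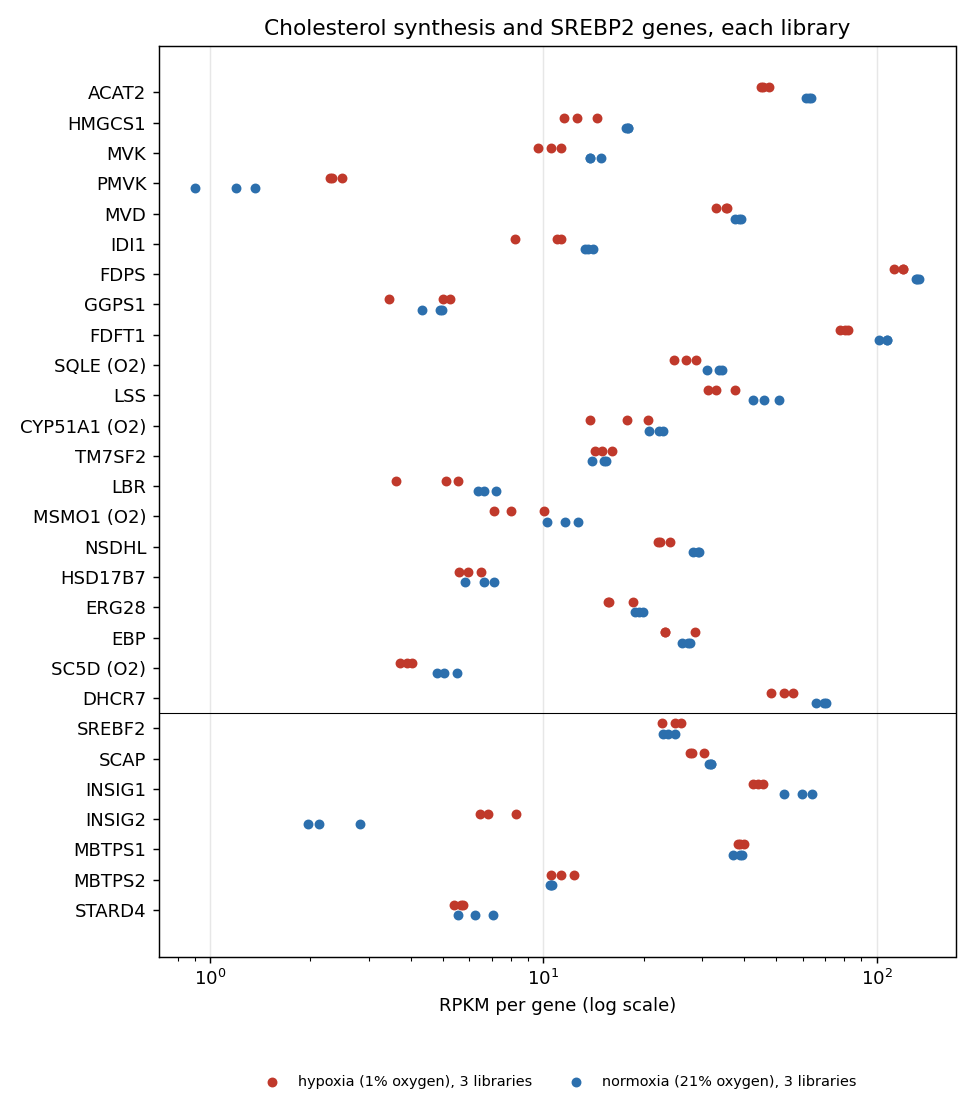
RPKM of each of the 28 genes on a log axis, in the 3 hypoxia libraries (red, upper row of each gene) and the 3 normoxia libraries (blue, lower row), in pathway order with enzymes above the line and SREBP2 control genes below it; (O2) marks enzymes that use oxygen. The red points lie left of the blue ones for most enzymes and right of them for PMVK and INSIG2, and levels run from 0.902 RPKM for PMVK to 134 RPKM for FDPS.

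The promoters of 4 genes are printed as examples of the directions seen, INSIG2 (raised) and INSIG1, HMGCS1 and MSMO1 (lowered). Each is the 250 bases before the most upstream start in RefSeq (GRCh38.p14), 5′ to 3′ on the strand of the gene. Capitals mark matches, on either strand, to CCAAT, the box bound by NF-Y, which works beside SREBP2 at many sterol genes, to ACGTG or GCGTG, the core bound by HIF, and to TCACNCCAC, a strict form of the sterol regulatory element.
INSIG2: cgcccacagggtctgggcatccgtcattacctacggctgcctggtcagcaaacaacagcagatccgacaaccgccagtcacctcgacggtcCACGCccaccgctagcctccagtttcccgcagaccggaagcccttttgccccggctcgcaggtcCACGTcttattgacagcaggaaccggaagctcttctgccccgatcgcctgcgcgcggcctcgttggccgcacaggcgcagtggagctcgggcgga
INSIG1: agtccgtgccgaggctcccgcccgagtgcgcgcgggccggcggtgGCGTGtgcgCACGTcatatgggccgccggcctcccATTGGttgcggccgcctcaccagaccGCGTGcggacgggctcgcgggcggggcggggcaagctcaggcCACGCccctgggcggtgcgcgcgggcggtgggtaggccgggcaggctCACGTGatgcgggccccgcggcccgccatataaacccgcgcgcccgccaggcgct
HMGCS1: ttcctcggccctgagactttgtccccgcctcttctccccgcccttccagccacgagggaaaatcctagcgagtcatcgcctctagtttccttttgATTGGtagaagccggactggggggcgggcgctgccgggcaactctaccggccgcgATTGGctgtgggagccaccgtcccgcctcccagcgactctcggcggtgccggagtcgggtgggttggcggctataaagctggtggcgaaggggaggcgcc
MSMO1: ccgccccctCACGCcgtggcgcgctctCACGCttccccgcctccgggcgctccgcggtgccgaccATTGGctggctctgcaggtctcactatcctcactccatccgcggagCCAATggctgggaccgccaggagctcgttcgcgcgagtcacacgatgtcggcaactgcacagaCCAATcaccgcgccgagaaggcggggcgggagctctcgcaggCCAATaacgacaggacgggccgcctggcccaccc

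The INSIG2 window (chr2:118088221-118088470, plus strand) held 1 ACGTG, 95 bases before the start on the other strand, and 1 GCGTG, 159 bases before it, and no CCAAT. The INSIG1 window (chr7:155297628-155297877, plus strand) held ACGTG as the palindrome CACGTG, counted on both strands at 54 and 55 bases before the start, and again at 196 bases. It also held 1 CCAAT, at 170 bases, and 3 GCGTG. The HMGCS1 window (chr5:43313413-43313662, minus strand) held CCAAT at 100 and 155 bases, and MSMO1 (chr4:165327419-165327668, plus strand) held it 4 times, at 34, 76, 139 and 185 bases. MSMO1 also held GCGTG at 223 and 241 bases, and HMGCS1 held neither ACGTG nor GCGTG. RefSeq promoters were matched for 25 of the 28 genes. ACAT2, FDFT1 and SQLE, all lowered, had none and are left out of these counts. CCAAT was in 15 of those 25, beside 35.7% of 9361 tested genes with a promoter and 33.0% of all 27305 genes in the RefSeq table. It was in 9 of the 13 lowered genes among them, and CYP51A1, DHCR7, IDI1 and LBR were lowered without it in this window. EBP, HSD17B7, MVD, SREBF2, STARD4 and TM7SF2 had it and were not called, and the raised INSIG2 and PMVK lacked it. ACGTG was in 6 of 25, beside 24.1% of the tested genes, and GCGTG in 20 of 25, beside 47.1%. The strict sterol element was in 1 of 25, SREBF2, beside 0.801% of the tested genes. A match says only that these letters stand in the window. The RefSeq start does not always meet the start of the GENCODE gene whose RPKM were summed. The IDI1 window (chr10:1056705-1056954) lies upstream of its GENCODE span, 1039152 to 1049170 on the minus strand. The windows of DHCR7 and EBP, among others, lie inside their genes. Which starts these cells use was not tested.

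The INSIG pair moved in opposite directions. INSIG2 (chromosome 2, 118088452 to 118110997, GRCh38, GENCODE 29) had 6.45, 8.29 and 6.83 RPKM in hypoxia, against 2.81, 2.12 and 1.97 RPKM in normoxia. Every hypoxia library was above every normoxia library, and the mean was 3.13-fold higher in hypoxia. The log2 fold change of INSIG2 was 1.31 (SE 0.12, adjusted p = 1.93e-05), from 172 to 707 estimated reads per library. INSIG1 (chromosome 7, 155297776 to 155310235) had 44.1, 42.6 and 45.7 RPKM in hypoxia, against 52.9, 64.1 and 59.8 RPKM in normoxia. The groups did not overlap, and INSIG1 fell by 25.1% (log2 fold change -0.41, SE 0.07, adjusted p = 0.00217). INSIG1 stayed the more abundant of the pair in all 6 libraries. The level of INSIG2 relative to INSIG1, a ratio of RPKM, was 0.146, 0.195 and 0.149 in hypoxia, against 0.0532, 0.0331 and 0.0329 in normoxia. The sum of both, in RPKM, was 51.3 ± 1.06 in hypoxia and 61.2 ± 5.28 in normoxia.

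At the transcript level the INSIG2 increase was seen in its coding transcript. INSIG2-201 (2590 bases), with 49.8% of the gene's RPKM, had 3.80, 4.04 and 2.86 RPKM in hypoxia, against 0.890, 1.39 and 1.19 RPKM in normoxia (log2 fold change 1.08, limma adjusted p = 0.00947 over 26790 tested transcripts). The short forms INSIG2-203 (627 bases, without a coding sequence) and INSIG2-202 (574 bases, a substrate of nonsense-mediated decay) made up 23.1% and 17.1%. INSIG2-203 had 1.56, 1.47 and 1.84 RPKM in hypoxia and 1.37, 0.0000637 and 0.348 RPKM in normoxia, so normoxia replicate 1 lay near the hypoxia level. The main coding form of INSIG1, INSIG1-201, averaged 30.7 ± 1.74 RPKM in hypoxia and 43.5 ± 2.77 RPKM in normoxia (log2 fold change -0.49, adjusted p = 0.0128).

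SREBF2, the gene of SREBP2, had 24.8, 22.7 and 25.8 RPKM in hypoxia, against 23.7, 24.9 and 22.8 RPKM in normoxia. The groups overlapped, and the log2 difference of 0.03 had a 95% confidence interval of -0.12 to 0.19 (adjusted p = 0.714). The escort SCAP was at 27.6, 27.9 and 30.3 RPKM in hypoxia, against 31.8, 31.8 and 31.3 RPKM in normoxia. Its groups did not overlap, but the difference of -0.14 missed the threshold (adjusted p = 0.0879). SCAP passed with libraries rescaled to equal sums (adjusted p = 0.0156), with the trend on GC content removed (0.00128) and without hypoxia replicate 3 (0.0279).

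The proteases that release SREBP2 did not pass the test. The site-1 protease MBTPS1 averaged 39.2 ± 0.725 RPKM in hypoxia and 38.5 ± 1.21 RPKM in normoxia (log2 difference 0.02, interval -0.10 to 0.15). The site-2 protease MBTPS2 averaged 11.4 ± 0.927 RPKM in hypoxia and 10.5 ± 0.0664 RPKM in normoxia (log2 difference 0.10, interval -0.06 to 0.27). Its 2 main transcripts differed in sign: MBTPS2-203, a processed transcript without a coding sequence, was at 6.83 ± 0.907 RPKM in hypoxia and 5.17 ± 0.212 RPKM in normoxia, and the coding MBTPS2-202 was at 4.55 ± 0.678 RPKM in hypoxia and 5.33 ± 0.202 RPKM in normoxia. Neither passed (adjusted p = 0.108 and 0.318), and YY2, an expressed gene on the same strand, lies within MBTPS2. The sterol carrier STARD4, another SREBP2 target, averaged 5.59 ± 0.175 RPKM in hypoxia and 6.28 ± 0.764 RPKM in normoxia and did not pass (adjusted p = 0.247).

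**Figure D2:**
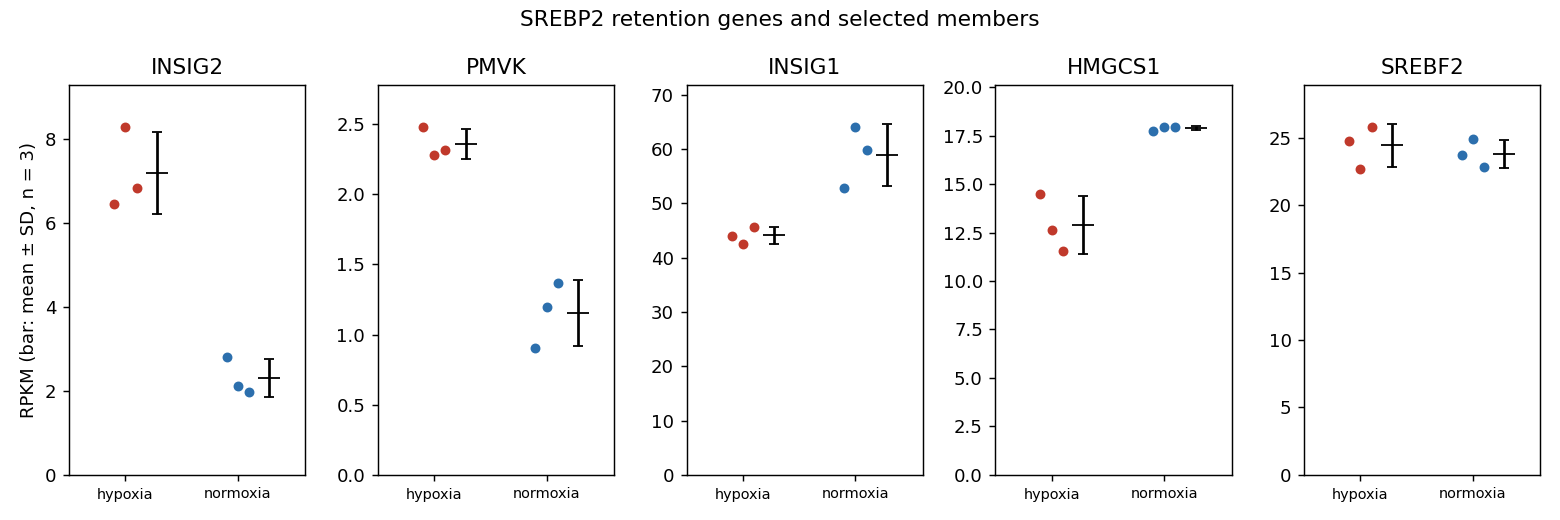
RPKM per library of INSIG2, PMVK, INSIG1, HMGCS1 and SREBF2, with hypoxia (red) left of normoxia (blue) and the mean ± SD over 3 libraries as a black bar; each axis starts at 0. INSIG2 and PMVK were higher in all 3 hypoxia libraries, INSIG1 and HMGCS1 were lower in all 3, and the SREBF2 points overlap.

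Of the 4 genes described here for the steps up to mevalonate diphosphate, ACAT2, HMGCS1 and MVK were lowered and PMVK was raised. ACAT2, the cytosolic thiolase that joins acetyl-CoA units, had 47.5, 45.0 and 45.5 RPKM in hypoxia, against 61.6, 62.5 and 63.6 RPKM in normoxia. HMGCS1, which makes HMG-CoA, had 14.5, 12.6 and 11.5 RPKM in hypoxia, against 17.7, 18.0 and 18.0 RPKM in normoxia. Both genes were lower in every hypoxia library, with log2 fold changes of -0.44 for ACAT2 (SE 0.05, adjusted p = 2.57e-04) and -0.45 for HMGCS1 (SE 0.08, adjusted p = 0.00222). The HMGCS1 decrease was the largest among the 28 genes on this scale. ACAT2 overlaps TCP1 on the other strand, and these libraries do not mark strand, so reads in the shared stretch cannot be told apart. Mevalonate kinase, MVK, had 9.62, 10.6 and 11.3 RPKM in hypoxia, against 13.8, 14.9 and 13.8 RPKM in normoxia. It fell by 26.2% (log2 fold change -0.41, adjusted p = 0.00272) and overlaps MMAB on the other strand.

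PMVK, the kinase that acts directly after MVK, went the other way. It had 2.48, 2.28 and 2.31 RPKM in hypoxia, against 0.902, 1.20 and 1.36 RPKM in normoxia. The groups did not overlap, and the mean was 2.04-fold higher in hypoxia (log2 fold change 0.65, SE 0.10, adjusted p = 0.00104). PMVK was the least abundant of the 28 genes in both groups and rested on 58.7 to 161 estimated reads in 1 annotated transcript of 1280 bases. It was above 1 RPKM in 5 of 6 libraries and met the filter only with the help of hypoxia libraries, where it was higher. With a pseudocount of 0.1 in place of 1 its log2 fold change was 0.99.

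Of the 4 isoprenoid steps, IDI1 and FDPS were lowered and MVD and GGPS1 did not pass. MVD, the decarboxylase that yields isopentenyl diphosphate, was at 33.0, 35.7 and 35.4 RPKM in hypoxia, against 38.6, 37.6 and 39.1 RPKM in normoxia. It was lower in every hypoxia library without passing the test (log2 difference -0.14, adjusted p = 0.0761). With the trend on GC content removed its value was -0.32 (adjusted p = 0.00171), and it passed also with libraries rescaled to equal sums. IDI1, the isomerase of that product, had 11.0, 11.3 and 8.19 RPKM in hypoxia, against 13.6, 13.4 and 14.1 RPKM in normoxia. It was lowered (log2 fold change -0.41, adjusted p = 0.0120), with hypoxia replicate 3 below the other two, and without that library its value was -0.27. Its call ended with no filter (adjusted p = 0.110) and on the most abundant transcript (0.104).

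FDPS, which makes farnesyl diphosphate and was the most abundant member in both groups, had 112, 120 and 120 RPKM in hypoxia, against 131, 132 and 134 RPKM in normoxia. It was called lowered (log2 fold change -0.18, adjusted p = 0.0252), but the value was -0.09 with median-of-ratios scaling (adjusted p = 0.207), and the call also ended without any 1 normoxia library. GGPS1, which makes geranylgeranyl diphosphate for protein prenylation, averaged 4.56 ± 0.982 RPKM in hypoxia and 4.74 ± 0.352 RPKM in normoxia. Its groups overlapped (adjusted p = 0.729), the log2 difference of -0.06 had an interval of -0.33 to 0.21, and it was 0.01 with median-of-ratios scaling and 0.10 without hypoxia replicate 3. FDPS overlaps RUSC1-AS1, and GGPS1 overlaps ARID4B, on the other strand, and both neighbours were above 1 RPKM. A gene without a symbol, also above 1 RPKM, overlaps GGPS1 on the same strand. FDPS also has 8 named pseudogenes, of which the highest reached 0.0183 RPKM.

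FDFT1, the squalene synthase that commits farnesyl diphosphate to sterols, was lowered. It had 77.8, 82.0 and 80.6 RPKM in hypoxia, against 102, 107 and 107 RPKM in normoxia, with no overlap (log2 fold change -0.39, SE 0.05, adjusted p = 5.00e-04). Its transcripts did not all move alike. The main form FDFT1-201, 72.3% of the gene's RPKM, averaged 54.1 ± 3.61 RPKM in hypoxia and 80.0 ± 4.08 RPKM in normoxia (log2 fold change -0.56, adjusted p = 0.00669). FDFT1-210, a coding form of 1890 bases with 4.21% of the RPKM, averaged 4.92 ± 0.318 RPKM in hypoxia and 2.89 ± 0.287 RPKM in normoxia (log2 fold change 0.61, adjusted p = 0.0213), and it was named after its values were seen. How reads were split between transcripts is an estimate of the authors' software.

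The 4 enzymes that use oxygen were all lowered, but without normoxia replicate 3 none of them passed (adjusted p = 0.0533 for SQLE, 0.121 for CYP51A1, 0.0674 for MSMO1 and 0.0648 for SC5D). Tested on the most abundant transcript of each, none passed either (adjusted p = 0.0622 to 0.261), and with no filter on low values only SC5D did. Squalene epoxidase, SQLE (chromosome 8, 124998497 to 125022283), had 26.9, 28.7 and 24.7 RPKM in hypoxia, against 30.9, 33.7 and 34.3 RPKM in normoxia. Its groups did not overlap and its log2 fold change was -0.29 (SE 0.07, adjusted p = 0.0101). The lanosterol demethylase CYP51A1 (chromosome 7, 92112151 to 92134803) had 17.8, 20.6 and 13.8 RPKM in hypoxia, against 20.8, 22.2 and 22.8 RPKM in normoxia. The highest hypoxia value lay just under the lowest normoxia value, and CYP51A1 passed narrowly (log2 fold change -0.33, SE 0.11, adjusted p = 0.0410). Without hypoxia replicate 3 its value was -0.18 (adjusted p = 0.0839), and with median-of-ratios scaling -0.25 (adjusted p = 0.127).

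MSMO1, the sterol methyl oxidase (chromosome 4, 165327623 to 165343160), had 7.97, 10.1 and 7.10 RPKM in hypoxia, against 10.3, 11.6 and 12.7 RPKM in normoxia. It had the largest decrease of the 4 (log2 fold change -0.43, SE 0.11, adjusted p = 0.0147), and again the highest hypoxia and lowest normoxia values nearly met. With the trend on GC content removed the MSMO1 value was -0.25 (adjusted p = 0.0491), and without hypoxia replicate 1 the call ended (adjusted p = 0.0519). The lathosterol desaturase SC5D (chromosome 11, 121292453 to 121308694) had 3.90, 3.70 and 4.04 RPKM in hypoxia, against 4.80, 5.05 and 5.51 RPKM in normoxia. The groups were apart (log2 fold change -0.32, SE 0.08, adjusted p = 0.0121), but with the trend on GC content removed its value was -0.15 (adjusted p = 0.204). Of the SC5D RPKM 28.9% was SC5D-209, a form with a retained intron. SC5D-209 had 1.07, 0.762 and 1.92 RPKM in hypoxia, against 1.13, 1.83 and 1.10 RPKM in normoxia. On coding transcripts alone the SC5D value was -0.34 (limma adjusted p = 0.0312). Per length, SQLE was the most and SC5D the least abundant of the 4 in both groups.

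The fold changes of the oxygen-using steps, set beside those of the other enzymes, overlapped with them. Their values of -0.29 to -0.43 lay within the range of the other lowered enzymes, -0.18 for FDPS to -0.45 for HMGCS1. Of the other 16 enzymes 10 were lowered and 1 raised, with a median of -0.36, beside a median of -0.33 for the 4. The mean log2(RPKM + 1) level of the oxygen-using enzymes was 3.62, 3.76 and 3.48 in hypoxia, against 3.87, 3.98 and 4.05 in normoxia, and that of the 16 others 4.28, 4.30 and 4.24 in hypoxia, against 4.47, 4.50 and 4.52 in normoxia. Both means were lower in every hypoxia library.

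The difference of the 2 means, oxygen-using minus other, was -0.65, -0.55 and -0.75 in hypoxia, against -0.60, -0.53 and -0.48 in normoxia. These per-library differences overlapped between the groups, with SDs of 0.103 in hypoxia and 0.0615 in normoxia. The mean log2 fold change was -0.34 for the oxygen-using enzymes and -0.23 for the others, a gap of -0.12 that was given no test, since the members were chosen with results known. The gap, -0.119, was larger in size than the SD within either group, but not than the SDs of both groups combined, 0.120. The gap was -0.17 without hypoxia replicate 2 and -0.07 without hypoxia replicate 3. Leaving out PMVK alone, a choice made after the data were seen, brought the gap to -0.06. With the trend on GC content removed it was 0.03, the opposite sign.

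**Figure D3:**
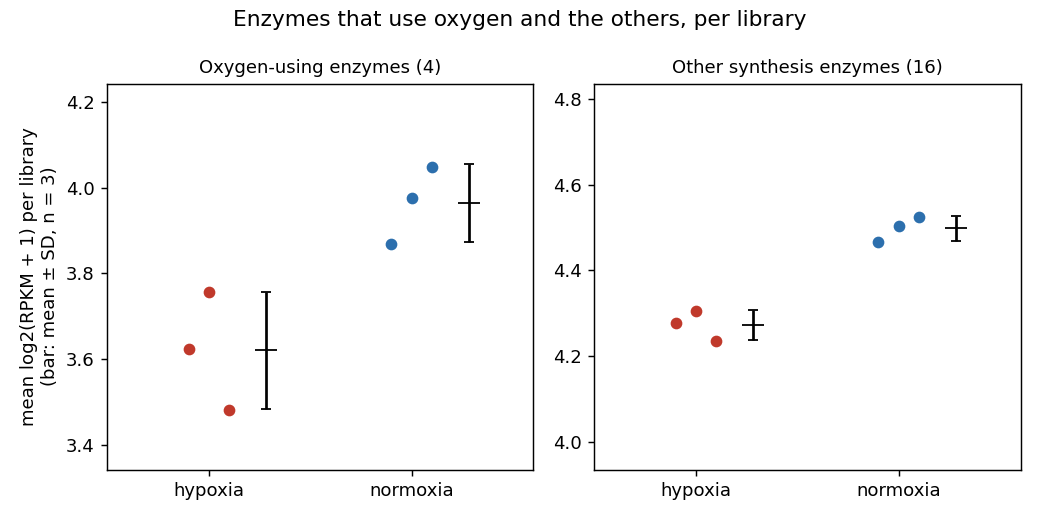
Mean log2(RPKM + 1) per library of the 4 oxygen-using enzymes (left panel) and of the 16 other synthesis enzymes (right panel), with hypoxia (red) left of normoxia (blue) and the mean ± SD over 3 libraries as a black bar; both vertical axes span the same range of log2 units and do not start at 0. Both sets were lower in all 3 hypoxia libraries, with group means of 3.62 in hypoxia and 3.96 in normoxia in the left panel and of 4.27 in hypoxia and 4.50 in normoxia in the right.

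Base composition moved with these values. The transcripts of the oxygen-using enzymes averaged 41.2% GC and those of the other enzymes 52.1%. Over all tested genes the median log2 fold change was -0.21 in the 2971 genes with the lowest GC content and 0.05 in the 2971 with the highest. Of the low-GC genes 72.0% had their lowest hypoxia value in hypoxia replicate 3, beside 4.34% of the high-GC genes. Among the 28 genes 9 are low-GC by the same limit, CYP51A1, MSMO1, SC5D, HMGCS1, IDI1, GGPS1, LBR, INSIG2 and STARD4, and 6 of these 9 had their lowest hypoxia value in replicate 3, as did 2 of the 19 others. With the trend on GC content removed, 15 of the 28 genes were lowered and 2 raised, INSIG2 at 1.47. Of all tested genes, 27.6% were lowered and 12% raised in that run. Without hypoxia replicate 3, 15 of the 28 were lowered and 2 raised, beside 23.3% and 10.2% of all tested genes. With both changes together 14 were lowered, an alternative chosen after the data were seen. The share over all genes was not computed for that last run.

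The sterol ring steps that use no oxygen were lowered in part. Lanosterol synthase, LSS, which closes the ring, had 33.0, 31.3 and 37.7 RPKM in hypoxia, against 45.8, 50.9 and 42.5 RPKM in normoxia (log2 fold change -0.44, adjusted p = 0.00298). The LSS call ended with no filter (adjusted p = 0.0541). NSDHL, the decarboxylating dehydrogenase that follows MSMO1, had 22.4, 24.0 and 22.0 RPKM in hypoxia, against 29.2, 28.1 and 29.1 RPKM in normoxia (log2 fold change -0.32, adjusted p = 0.00294). Neither gene's groups overlapped. DHCR7, which carries out a last reduction to cholesterol, had 52.8, 48.1 and 56.1 RPKM in hypoxia, against 69.6, 70.5 and 65.7 RPKM in normoxia (log2 fold change -0.39, adjusted p = 0.00177). For NSDHL both coding forms were lower, and only the less abundant, NSDHL-201, passed (adjusted p = 0.0126). An expressed gene on the other strand overlaps DHCR7.

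LBR and TM7SF2 can catalyse the same ring reduction. LBR, also the lamin B receptor of the nuclear envelope, had 5.11, 5.54 and 3.60 RPKM in hypoxia, against 6.66, 6.35 and 7.21 RPKM in normoxia, and was lowered (log2 fold change -0.44, adjusted p = 0.0165). Hypoxia replicate 3 was again the lowest, and without it the value of LBR was -0.29. It was -0.26 with the trend on GC content removed, and the call ended without normoxia replicate 3 (adjusted p = 0.0658), with no filter (0.137) and on the most abundant transcript (0.0984). TM7SF2 averaged 15.1 ± 0.883 RPKM in hypoxia and 14.9 ± 0.775 RPKM in normoxia, with overlapping groups and an interval of -0.14 to 0.18 (adjusted p = 0.835). TM7SF2 overlaps VPS51 on the same strand. A test of the difference between LBR and TM7SF2 was not made.

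HSD17B7 and EBP did not pass. HSD17B7, the ketosteroid reductase of the demethylation complex, averaged 6.01 ± 0.467 RPKM in hypoxia and 6.52 ± 0.657 RPKM in normoxia (adjusted p = 0.406), and its pseudogenes reached at most 0.402 RPKM. The isomerase EBP had 23.1, 28.6 and 23.2 RPKM in hypoxia, against 26.0, 27.2 and 27.6 RPKM in normoxia (adjusted p = 0.302). Hypoxia replicate 2 of EBP was above all normoxia libraries, and without that library EBP was lowered (log2 fold change -0.21, adjusted p = 0.0267). ERG28, known from yeast as the scaffold that holds the demethylation enzymes together, had 15.6, 18.5 and 15.7 RPKM in hypoxia, against 18.8, 19.4 and 19.9 RPKM in normoxia. It passed narrowly (log2 fold change -0.21, adjusted p = 0.0481), a call lost in 11 of the 16 alternatives, and it overlaps TTLL5 on the other strand.

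**Figure D4:**
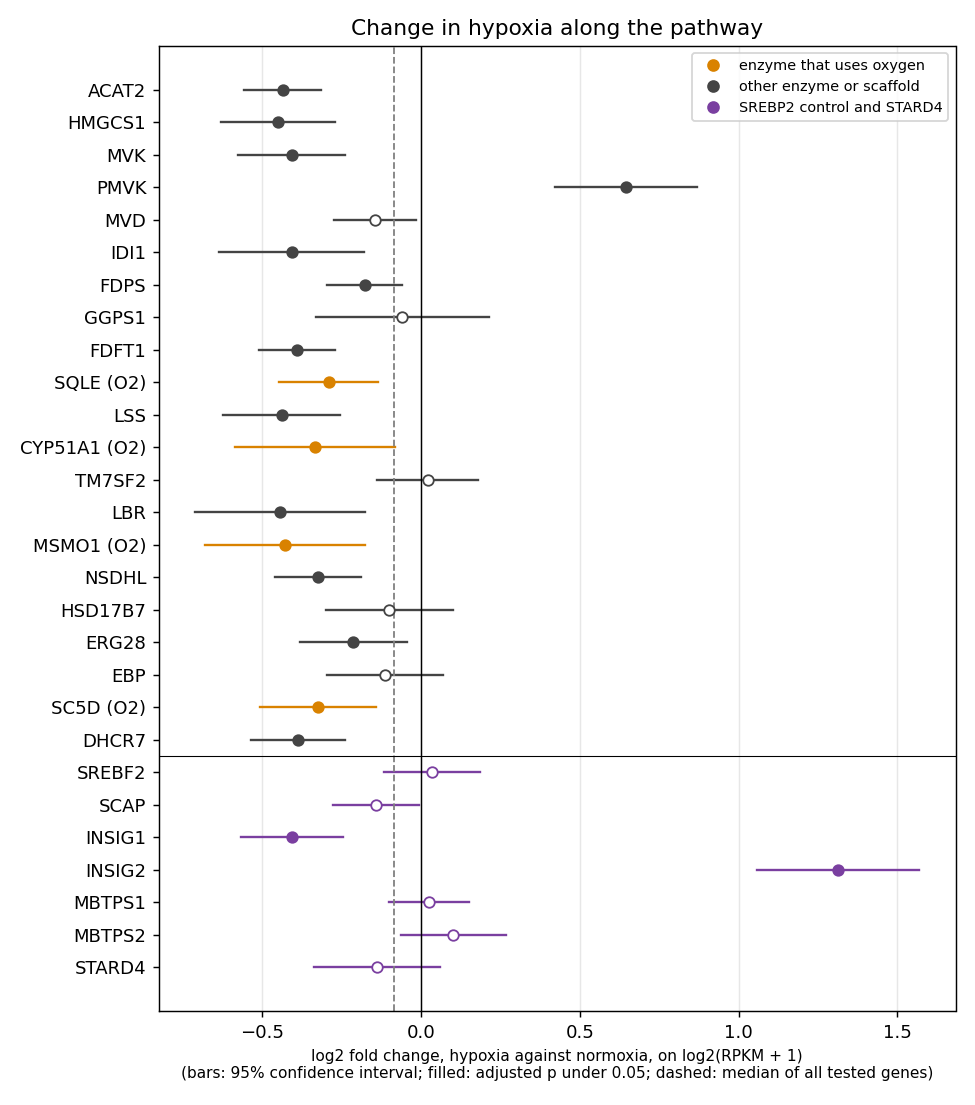
Log2 fold change, hypoxia against normoxia, of the 28 genes in pathway order, with 95% confidence intervals from limma as bars; filled points passed an adjusted p of 0.05, orange marks enzymes that use oxygen, purple the SREBP2 control genes and STARD4, and the dashed line the median of all tested genes at -0.08. Most enzymes lie between -0.45 and -0.18, and PMVK at 0.65 and INSIG2 at 1.31 stand to the right.

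Of the 18 called genes, 8 kept their call in every alternative that tested them. ACAT2, HMGCS1, MVK, FDFT1, DHCR7 and INSIG1 stayed lowered, and PMVK and INSIG2 stayed raised. PMVK, which met the main filter only with the help of hypoxia libraries, was not tested with the filter at 5 RPKM. INSIG2 met that stricter filter only through its hypoxia libraries. The other 10 lost it in at least 1, and no called gene changed sign. The gene that lost its call most often after ERG28 was CYP51A1, in 10 of 16 alternatives.

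**Figure D5:**
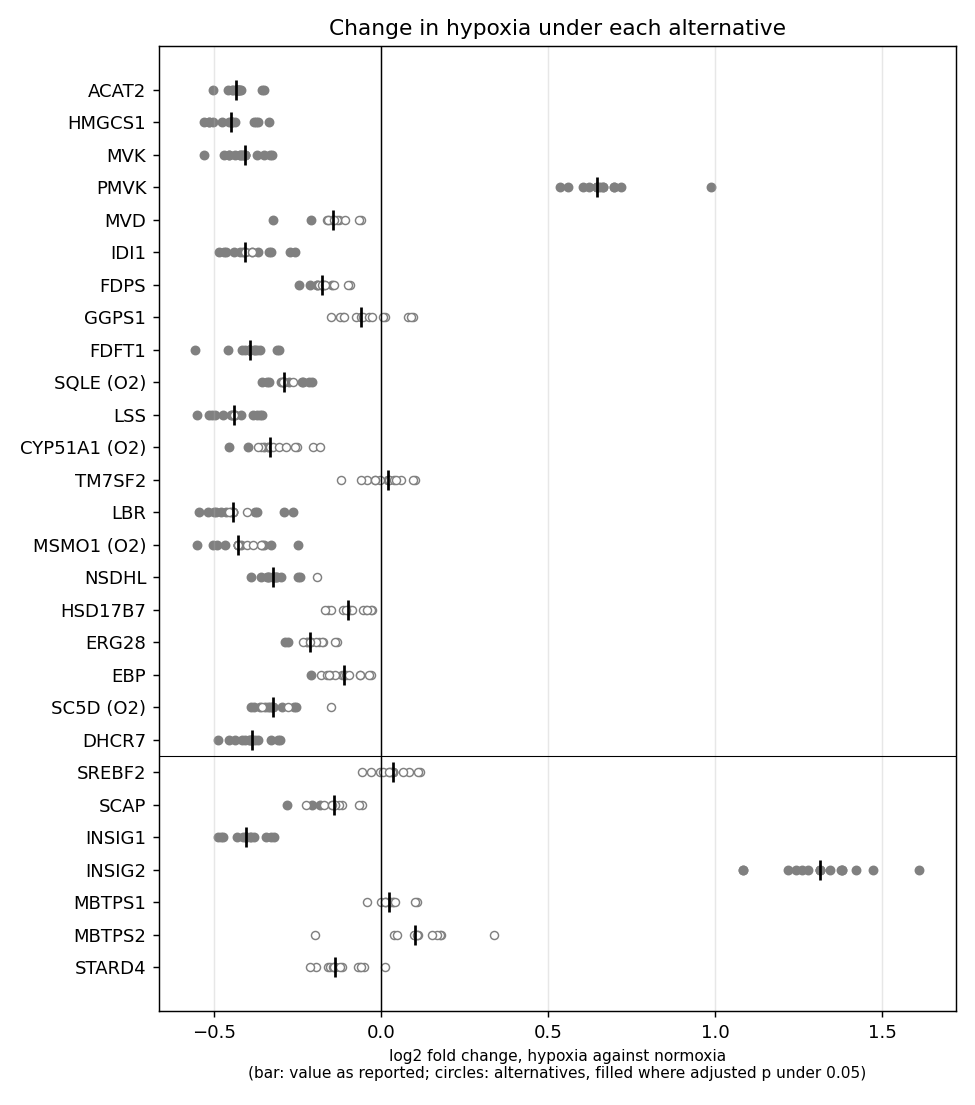
Log2 fold change of each gene as reported (black bar) and in up to 16 alternatives (circles, filled where the adjusted p was under 0.05), hypoxia against normoxia. INSIG2 ran from 1.08 to 1.61 and HMGCS1 from -0.53 to -0.34, and all their circles are filled, whereas those of CYP51A1 and ERG28 are mostly open.

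Other genes around the pathway were described from 5 lists, chosen with earlier results of these data known. Of 14 ubiquitin ligases and partners that remove sterol enzymes or INSIG1 from the endoplasmic reticulum, 6 were lowered (42.9%) and 8 did not pass, beside 24.4% lowered over all tested genes, and the median was -0.17, beside -0.08 over all tested genes. The conjugating enzyme UBE2G2 averaged 38.0 ± 2.41 RPKM in hypoxia and 47.2 ± 0.911 RPKM in normoxia (log2 fold change -0.31, adjusted p = 0.00425). It was lower in all 3 hypoxia libraries.

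Among 18 genes of sterol uptake, trafficking and esterification, 15 were tested, 5 were lowered (33.3%) and 1 was raised, with a median of -0.07, so the share lay near the 24.4% and the median near the -0.08 of all tested genes. The raised gene was SCARB1, the receptor for high-density lipoprotein, with 11.3, 9.11 and 13.6 RPKM in hypoxia, against 8.10, 5.50 and 5.50 RPKM in normoxia (log2 fold change 0.74, adjusted p = 0.00387). Its groups did not overlap, though normoxia replicate 1 came close to hypoxia replicate 2. The largest decreases were in TMEM97, a sterol-regulated membrane protein, at 8.84 ± 0.719 RPKM in hypoxia and 13.1 ± 0.565 RPKM in normoxia (log2 fold change -0.52, adjusted p = 7.85e-04), and in the lipoprotein receptor LRP8, at 7.11 ± 0.972 RPKM in hypoxia and 10.3 ± 0.914 RPKM in normoxia (log2 fold change -0.48, adjusted p = 0.00486). Of 8 efflux and oxysterol genes 2 were expressed enough to test, the sterol receptors NR1H2 and NR1H3, and they were at 28.4 ± 2.48 and 8.37 ± 0.634 RPKM in hypoxia and at 28.1 ± 0.845 and 7.10 ± 0.395 RPKM in normoxia (adjusted p = 0.908 and 0.0629).

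In the branches that use isoprenoids for other ends, 7 of 21 genes were lowered (33.3%) and 2 raised, with a median of -0.07. Over all tested genes 24.4% were lowered and 12.4% raised, with a median of -0.08, so these branches lay near the background. ZMPSTE24, the protease that trims farnesylated prelamin A, had 11.3, 12.6 and 7.18 RPKM in hypoxia, against 17.3, 18.5 and 21.0 RPKM in normoxia (log2 fold change -0.84, adjusted p = 0.00241). PDSS1, which makes the side chain of coenzyme Q, was also lowered (log2 fold change -0.40, adjusted p = 0.00294). FNTB, a subunit of protein farnesyltransferase, had 13.8, 12.2 and 14.0 RPKM in hypoxia, against 9.97, 9.27 and 9.38 RPKM in normoxia (log2 fold change 0.44, adjusted p = 0.00176), and TRIT1, which adds an isopentenyl group to transfer RNA, rose (log2 fold change 0.18, adjusted p = 0.0355). The groups of ZMPSTE24 and FNTB did not overlap.

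Of 12 genes of acetyl-CoA supply and other known SREBP targets, 4 were lowered (33.3%) and 8 did not pass, with a median of -0.16, again beside 24.4% lowered and a median of -0.08 over all tested genes. Fatty acid synthase, FASN, had 67.3, 59.8 and 70.0 RPKM in hypoxia, against 106, 104 and 91.7 RPKM in normoxia (log2 fold change -0.60, adjusted p = 2.40e-04), and the elongase ELOVL6 was at 8.65 ± 0.230 RPKM in hypoxia and 11.8 ± 0.553 RPKM in normoxia (log2 fold change -0.40, adjusted p = 0.00201). FASN was lower in every hypoxia library.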

How the data were processed

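RNA was measured in 3 hypoxia and 3 normoxia samples. The authors deposited RPKM values for 165956 Ensembl transcripts. No unit is named in the file; it was read from the numbers, since low values of genes with 1 transcript, times length, fell within 0.1 of whole multiples of 1 step in 79.0% to 80.4% of cases, which gives the read depths. Trimmomatic, HISAT2, SAMtools and Partek are named, with GRCh38 and hg38, per the submitters' processing notes; the sources used here give no versions, annotation or counting settings. Per the labels' protocols, total RNA was used with a library kit that does not mark strand.

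Transcripts were joined to GENCODE 29 (140023, 84.4%) and RPKM summed over 26425 genes; unmatched transcripts held 3.43% to 3.67% of RPKM. Summing weights short transcripts more than counting would. Genes were tested with limma (trend) on log2(RPKM + 1), without a block; transcripts likewise. The test was checked on simulated data, where it recovered 96% and 100% of log2 changes of 1 and -1. Of changes of 0.5 and -0.5 it recovered 62% and 58%, so smaller true changes can be missed. The simulation changed 50 genes per size among 11889 and gave both groups the same spread. In the data 4379 genes were called, and the median SD was 0.111 in hypoxia and 0.0611 in normoxia. The simulated rates may therefore not hold for these data. Replicates differed by more than counting noise. The mean chi-square per gene was 24 to 26.5 between hypoxia libraries and 7.83 to 13.8 between normoxia libraries, while the fit used 1 variance for both groups. Estimated reads and depths cover counting error only. Members and lists were chosen with earlier results of these data known. All 28 members are named, and from each other list up to 2 raised and 2 lowered genes with the largest changes. A gene that this rule would name is not reported here. Other pathway genes were not analysed here. Alternatives were 3 other scalings, 2 other filters, another pseudocount, the block, coding transcripts, the most abundant transcript, removal of the GC trend and each library left out. Promoters are from RefSeq (GRCh38.p14). R 4.3.3, limma 3.58.1, Python 3.11.15, pandas 2.3.3, numpy 2.4.6 and matplotlib 3.10.9 were used.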

Additional observations from a re-analysis of the deposited data

How the results depend on the processing

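All 18 called members kept their direction in the alternatives run, and 6 of the 10 others changed sign in at least 1 (GGPS1, TM7SF2, SREBF2, MBTPS1, MBTPS2 and STARD4). With no filter, 26425 genes were tested and 2436 of them were called, beside 4379 as reported. In that run 11 members were called, 9 of them lowered, beside 5.17% of all genes lowered and 4.05% raised. The cause of the change in counts was not tested. With the filter at 5 RPKM the number of raised members was 1, since PMVK, with SC5D and GGPS1, was not tested. The gap between oxygen-using and other enzymes was 0.028 with the GC trend removed, the opposite sign; the cause was not tested. Leaving out 1 library gave 2548 to 4371 called genes, 11 to 19 called members, 9 to 17 lowered members and a gap of -0.17 to -0.07. The labels do not say whether equal replicate numbers pair the samples. Deviations of same-numbered libraries correlated at 0.0894, 0.0299 and -0.227, which cannot decide it with so few libraries. With the replicate block 15 members were lowered and 2 raised, ERG28 losing its call (adjusted p = 0.0631), and 2663 of all genes were lowered and 1466 raised; not every library correlated best with its own number. Members of low depth, PMVK above all, are measured least precisely. All alternatives planned were run.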
